A study of Mus musculus with 6 samples.

Results

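A group of 7 genes for receptors that carry lymphocytes from blood into lymph nodes was followed between 2 lymphoid organs. The genes were Ccr7, Cxcr4, Selplg, Itgal, Itgb2, Icam2 and Cd47. They were chosen by name with earlier results of these data known, so counts among them are a description and no independent test. Each matched 1 of the 55487 gene identifiers in the deposited tables. All 7 were among the 12486 genes with enough counts to test. The cells were naive CD4+ T cells, helper-lineage T cells that have not yet met their antigen. They came from the mesenteric lymph nodes (mLN) in 3 libraries and from the spleen in 3 libraries, all from wild-type C57BL6/J mice with no treatment, and were used freshly prepared. The labels give neither the age nor the number of the mice nor the markers used to purify the cells. Nothing says that the libraries of an organ stem from different mice, and a p-value here sets organs against a library-to-library spread that may be technical. Polyadenylated RNA was sequenced, and the estimated counts summed to between 13205499 and 20054205 per library. Levels are given as CPM (counts over the library's total, with TMM factors that set the typical gene equal between libraries) or as deposited TPM, which also divides by transcript length. Fold changes are mLN over spleen.

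Lymphocytes enter lymph nodes through high endothelial venules. They first roll on the vessel wall through selectins and their sugar-bearing partners. A chemokine signal, mainly CCL19 and CCL21 acting on CCR7 with a smaller part for CXCL12 on CXCR4, then switches the integrin LFA-1 into a state that binds the ICAM proteins of the vessel and stops the cell. The spleen has no high endothelial venules, and lymphocytes reach it from the open circulation of its marginal zone and red pulp.

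Both chains of LFA-1, Itgal and Itgb2, were higher in mLN cells, at 1.20-fold and 1.22-fold. The chemokine receptor genes Ccr7 and Cxcr4 were lower in mLN cells, at 0.797 and 0.658 of their spleen levels, and so were Icam2 at 0.828 and Selplg at 0.865. Cd47 did not pass the test. In edgeR's quasi-likelihood test, at an adjusted p under 0.05 over the whole table, 2 of the 7 genes were thus higher and 4 lower. Over all 12486 genes the same test called 16.1% higher and 13.5% lower in mLN, 29.6% in either direction. The summed level of the 7 genes ran from 2588 to 2746 CPM in mLN libraries and from 2532 to 2719 CPM in spleen libraries, so the groups overlapped in the total. The members' median log2 fold change was -0.21, against -0.01 over all genes tested.

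**Figure D1:**
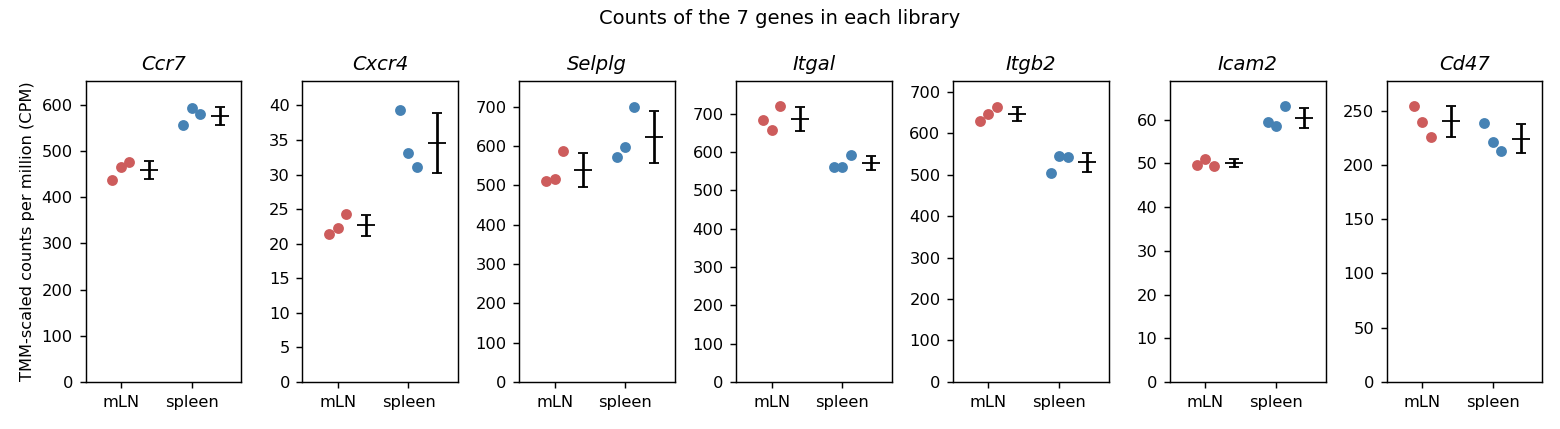
Level of each of the 7 genes in TMM-scaled CPM, with 1 point per library, mLN left of spleen; the black bar is the mean ± SD of 3 libraries and every axis starts at 0. The groups are apart for Ccr7, Cxcr4, Itgal, Itgb2 and Icam2 and overlap for Selplg and Cd47.

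The libraries carried T cell transcripts and few of other lineages, with a difference between organs in what little there was. Cd4 averaged 891 ± 12.4 CPM in mLN cells and 930 ± 45.1 CPM in spleen cells (SD, n = 3 each). All 12 T cell markers were tested, and in sum they reached 6491 to 6716 CPM in mLN libraries and 6358 to 6508 CPM in spleen libraries. Within that sum 4 were higher and 4 lower in mLN, beside 16.1% higher and 13.5% lower over all genes tested. Cd3e (1.28-fold), Cd6 (1.19-fold), Tcf7 (1.33-fold) and Lef1 (1.35-fold) rose, and Cd3d (0.701 of the spleen level), Cd3g (0.696), Cd247 (0.698) and Cd28 (0.769) fell, changes of a size like those of the receptor genes. Neutrophil markers summed to between 0.225 and 1.59 CPM in mLN libraries and between 43.6 and 48.7 CPM in spleen libraries, and of 11 listed the 7 that could be tested were all lower in mLN. These 7 averaged at most 0.198 CPM in mLN cells. They entered the test through their spleen counts, so the filter set their direction and their count adds nothing to the sums. S100a9, a granulocyte alarmin subunit, averaged 0.169 ± 0.0874 CPM in mLN cells and 11.6 ± 3.13 CPM in spleen cells, and Csf3r, the G-CSF receptor, 0.116 ± 0.200 CPM in mLN cells and 10.5 ± 0.746 CPM in spleen cells (SD, n = 3 each). Of the 4 that could not be tested, Ly6g and Elane were at 0 in all 6 libraries, where 3 counts would have been 0.150 to 0.227 CPM. Monocyte and macrophage markers summed to between 3.83 and 5.50 CPM in mLN libraries and between 37.4 and 41.6 CPM in spleen libraries, with 6 of 7 tested of 15 listed lower. B cell markers summed to between 12.3 and 20.8 CPM in mLN libraries and between 35.9 and 42.7 CPM in spleen libraries, with 6 of 10 lower. Dendritic cell markers summed to between 32.4 and 39.7 CPM in mLN libraries and between 42.9 and 45.9 CPM in spleen libraries, with 2 of 4 tested lower. Most of that sum was Bst2, at 36.0 ± 3.85 CPM in mLN cells and 36.3 ± 3.21 CPM in spleen cells (SD, n = 3 each). The other 7 dendritic cell markers summed to between 0.751 and 1.17 CPM in mLN libraries and between 5.86 and 9.83 CPM in spleen libraries. The 2 called dendritic cell markers and most of the called monocyte and macrophage markers likewise entered the test through their spleen counts. Regulatory T cell markers summed to between 31.3 and 44.1 CPM in mLN libraries and between 46.1 and 52.5 CPM in spleen libraries, with 1 of 5 lower. That 1 was Tnfrsf18, which made up most of the sum, at 30.2 ± 6.64 CPM in mLN cells and 40.4 ± 3.55 CPM in spleen cells. Its call was lost with the length trend removed (adjusted p = 0.289). Foxp3 was at 0.779 ± 0.155 CPM in mLN cells and 1.55 ± 0.431 CPM in spleen cells (SD, n = 3 each). CD8 and NK cell markers overlapped between the organs, at 15.5 to 26.3 CPM in mLN libraries and 23.1 to 29.4 CPM in spleen libraries, and 0 of 7 passed. Erythroid markers stayed under 1 CPM in sum in every library. Endothelial markers, which would show vessel cells, reached at most 0.184 CPM in sum in an mLN library and 0.849 CPM in a spleen library. Between them, myeloid, dendritic and B cells also express the 7 genes, and their part in the values of any of these genes was not tested. In bulk samples, fewer cells of a type and less RNA per cell cannot be told apart.

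Ccr7 (ENSMUSG00000037944) encodes the receptor for CCL19 and CCL21, the chemokines that bring naive T cells into the T cell zones. It lies on the minus strand of chromosome 11, positions 99144196 to 99155077 of GRCm38, the assembly that mm10 names, and has a single annotated transcript of 1978 nt. Its level was 438, 465 and 475 CPM in mLN libraries 1 to 3, against 555, 593 and 580 CPM in spleen libraries 1 to 3. Every mLN library was below every spleen library. The mean was 459 ± 19.3 CPM in mLN cells and 576 ± 19.2 CPM in spleen cells (SD, n = 3 each), which gave a log2 fold change of -0.33 (standard error 0.057, adjusted p = 1.53e-04). The spread within a group was therefore a small part of the difference between groups. Groups that do not overlap in CPM were common, at 41.8% of all genes tested, 21.5% with mLN higher and 20.3% with mLN lower, and the 7 members held 5 such genes.

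Cxcr4 (ENSMUSG00000045382), the receptor for CXCL12, had the lowest TPM of the 7 genes and the largest fold change in CPM among them. It lies on the minus strand of chromosome 1, positions 128588199 to 128592293. It had 21.4, 22.2 and 24.3 CPM in mLN libraries 1 to 3, against 39.4, 33.1 and 31.0 CPM in spleen libraries 1 to 3. The groups did not overlap, and spleen library 1 stood above the other 2 spleen libraries. The log2 fold change was -0.60 (standard error 0.126, adjusted p = 9.24e-04). Without spleen library 1 it was -0.51 (adjusted p = 0.0108).

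The annotation gives Cxcr4 an isoform pair, Cxcr4-201 of 1805 nt and Cxcr4-202 of 902 nt, whose coding bases differ near the start. The first coding bases of each, read from the GENCODE vM21 transcripts (minus strand of chromosome 1, between positions 128589863 and 128592209, across 1 exon junction), show where they part. Within this stretch, the 6 capitals are the bases that the shorter transcript lacks. The whole transcripts differ by far more, 1805 against 902 nt, so the isoform shares below do not measure the use of these 6 bases alone.
Cxcr4-201: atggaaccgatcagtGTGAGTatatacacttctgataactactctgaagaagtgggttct
Cxcr4-202: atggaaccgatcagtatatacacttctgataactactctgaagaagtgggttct
The deposited tables give a mean transcript length per gene, weighted by the estimated abundance of each isoform, so the share of the longer isoform follows from it. That share was 78.4%, 42.5% and 56.3% in mLN libraries 1 to 3, against 70.6%, 68.6% and 58.0% in spleen libraries 1 to 3. The groups overlapped, and the mLN libraries spread more widely, from 42.5% to 78.4%. The mean length was 1435 ± 164 nt in mLN cells and 1496 ± 61.4 nt in spleen cells (SD, n = 3 each; two-sided exact permutation test, p = 0.60, or 0.72 adjusted over the 6 members with several transcripts).

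Since TPM divides by that length, the isoform estimate enters the Cxcr4 level per length. Cxcr4 had 22.9, 32.1 and 30.1 TPM in mLN libraries 1 to 3, against 37.0, 31.2 and 32.0 TPM in spleen libraries 1 to 3, and here the groups overlapped. The overlap came from mLN library 2, which had the shortest estimated length of the 6 libraries, 1286 nt. Split by isoform, the longer transcript stood at 16.2 ± 2.26 TPM in mLN cells and 22.0 ± 3.83 TPM in spleen cells, and the shorter at 12.2 ± 6.80 TPM in mLN cells and 11.4 ± 1.87 TPM in spleen cells (SD, n = 3 each). The ratio of Cxcr4 to Ccr7 in TPM was 0.0735 ± 0.00990 in mLN cells and 0.0835 ± 0.0103 in spleen cells (SD, n = 3 each; two-sided exact permutation test, p = 0.50, or 0.60 adjusted over the 2 ratios compared). The smallest p that 3 against 3 libraries allow in that test is 0.1.

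Selplg (ENSMUSG00000048163) encodes PSGL-1, a mucin-like protein that carries selectin ligands and also binds CCL19 and CCL21. Selplg is a minus-strand gene of chromosome 5, positions 113818536 to 113832644. Its level was 511, 517 and 587 CPM in mLN libraries 1 to 3, against 573, 597 and 699 CPM in spleen libraries 1 to 3. Library 3 was the highest of its group in both organs, and the mLN library with 587 CPM lay above the lowest spleen library. The log2 fold change was -0.21 (standard error 0.073, adjusted p = 0.0358). Without spleen library 3 the log2 fold change was -0.13 and no longer passed (adjusted p = 0.147). The call was also lost without mLN library 1, at -0.18 (0.142), and without mLN library 2, at -0.18 (0.129).

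Icam2 (ENSMUSG00000001029) encodes a ligand of LFA-1 that is found on endothelium and also on lymphocytes and platelets. It lies on the minus strand of chromosome 11, positions 106377656 to 106388075. It had 49.7, 51.1 and 49.4 CPM in mLN libraries 1 to 3, against 59.5, 58.6 and 63.1 CPM in spleen libraries 1 to 3. The groups did not overlap, and the mLN libraries lay within 2 CPM of each other. The log2 fold change was -0.27 (standard error 0.088, adjusted p = 0.0238). The adjusted p was 0.0601 without spleen library 3 and 0.0665 without mLN library 1. Of 8 platelet markers, 2 were expressed enough to test and neither passed; the list summed to between 3.75 and 6.38 CPM in mLN libraries and between 3.68 and 6.19 CPM in spleen libraries.

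Itgal and Itgb2 encode the alpha and beta chain of LFA-1, which must pair to reach the cell surface. Itgal (ENSMUSG00000030830) lies on the plus strand of chromosome 7, positions 127296260 to 127335138, and Itgb2 (ENSMUSG00000000290) on the plus strand of chromosome 10, positions 77530252 to 77565708. Their short cytoplasmic tails receive the signal that activates the integrin, and the bases that encode them are shown for that reason. They are the last 54 codons of Itgal-202 (chromosome 7, between positions 127330234 and 127333607) and the last 46 codons of Itgb2-201 (chromosome 10, between positions 77564727 and 77565237), each across 1 exon junction and without the stop codon. Capitals in Itgal mark the membrane-proximal motif shared by integrin alpha chains. Capitals in Itgb2 mark a pair of motifs, of which the first is the site that binds talin and the second the site that binds kindlin-3.
Itgal-202: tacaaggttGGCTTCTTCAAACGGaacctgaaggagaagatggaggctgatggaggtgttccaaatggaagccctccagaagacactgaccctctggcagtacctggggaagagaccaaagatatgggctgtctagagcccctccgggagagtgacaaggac
Itgb2-201: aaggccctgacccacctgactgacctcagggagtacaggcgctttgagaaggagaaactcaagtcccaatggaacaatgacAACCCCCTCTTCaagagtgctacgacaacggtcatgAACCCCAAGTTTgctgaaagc

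Itgal had 683, 657 and 719 CPM in mLN libraries 1 to 3, against 561, 562 and 592 CPM in spleen libraries 1 to 3. Each mLN library was above each spleen library, and the log2 fold change was 0.26 (standard error 0.056, adjusted p = 0.00111). Itgb2 had 630, 646 and 665 CPM in mLN libraries 1 to 3, against 504, 544 and 542 CPM in spleen libraries 1 to 3. These groups did not overlap either, with a log2 fold change of 0.29 (standard error 0.056, adjusted p = 4.96e-04). Both calls held with each library left out in turn.

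Per length, the beta chain transcript was the more abundant of the pair in every library. Itgb2 stood at 360 ± 6.92 TPM in mLN cells and 250.5 ± 9.16 TPM in spleen cells, and Itgal at 204 ± 6.54 TPM in mLN cells and 145 ± 4.20 TPM in spleen cells (SD, n = 3 each). The ratio of Itgal to Itgb2 was 0.560, 0.561 and 0.573 in mLN libraries 1 to 3, against 0.610, 0.545 and 0.585 in spleen libraries 1 to 3. The groups overlapped, and the ratio differed by -0.04 on the log2 scale (two-sided exact permutation test, p = 0.60, also after adjustment over the 2 ratios). In TPM, too, both genes had groups that did not overlap, as did 35.1% of all genes tested in this direction, 6.22% in the other and 41.3% in either. The groups of the other 5 members overlapped in TPM.

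Cd47 (ENSMUSG00000055447) encodes a widely expressed membrane protein that binds thrombospondin and, on myeloid cells, the inhibitory receptor SIRP-alpha, and that also associates with integrins. It lies on the plus strand of chromosome 16, positions 49800533 to 49915010. It had 255, 239 and 226 CPM in mLN libraries 1 to 3, against 239, 221 and 213 CPM in spleen libraries 1 to 3. The groups overlapped, and the log2 fold change was 0.10 (standard error 0.067, adjusted p = 0.302). An interval of 2 standard errors around it ran from -0.04 to 0.23, or 0.975-fold to 1.17-fold. Cd47 was the only one of the 6 genes with several annotated transcripts whose mean transcript length did not overlap between organs. That length was 2554 ± 114 nt in mLN cells and 2337 ± 71.9 nt in spleen cells (SD, n = 3 each; exact permutation test, p = 0.1, the smallest possible, and 0.40 after adjustment over these 6 genes). Its 10 annotated transcripts range in length from 1032 to 5250 nt, so the mean does not say which of them differed.

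For the other genes with several transcripts the length ranges of the organs overlapped. Selplg, Itgal and Itgb2 averaged 24.2, 110 and 44.3 nt more in mLN cells than in spleen cells, and Icam2 differed by -8.19 nt (exact permutation p between 0.2 and 0.8, adjusted p between 0.4 and 0.8).

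Ordered by mean TPM, the 7 genes kept 1 order in both organs, which ran Selplg, Ccr7, Itgb2, Itgal, Cd47, Icam2 and Cxcr4. Selplg reached 516 ± 30.7 TPM in mLN cells and 504 ± 49.0 TPM in spleen cells, and its mean over the 6 libraries was above that of 98.3% of the genes tested. Ccr7 followed with 385 ± 15.2 TPM in mLN cells and 401 ± 11.5 TPM in spleen cells. Ccr7 and Itgb2 were close neighbours in mLN cells, where the ranges of their libraries overlapped, and well apart in spleen cells. Cd47 had 151 ± 13.8 TPM in mLN cells and 129 ± 6.73 TPM in spleen cells, and Icam2 had 110 ± 2.86 TPM in mLN cells and 109 ± 15.0 TPM in spleen cells, so that their ranges overlapped in spleen cells and were apart in mLN cells. Cxcr4 was the lowest by a wide margin, with 28.4 ± 4.83 TPM in mLN cells and 33.4 ± 3.14 TPM in spleen cells. Even so, its mean TPM over the 6 libraries was above that of 65.6% of the genes tested.

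**Figure D2:**
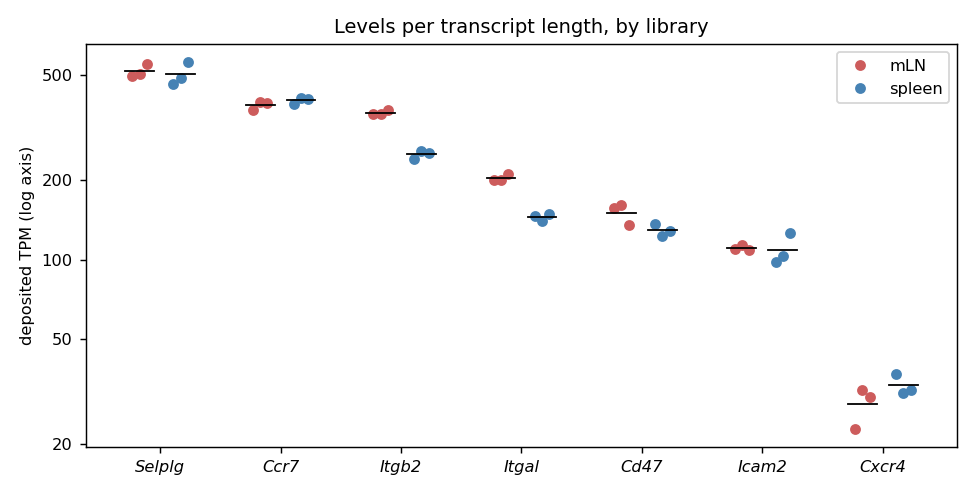
Deposited TPM of the 7 genes on a log axis, with 1 point per library and a line at the mean of 3 libraries, in order of the mLN mean; mLN is left of spleen for each gene. The organs are apart for Itgb2 and Itgal, and Cxcr4 lies far below the other genes in both organs.

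How far each gene moved depended on the scale. Across all genes, fold changes followed transcript length: of 1421 tested genes with transcripts up to 1000 nt, 11 were higher and 423 lower in mLN, and of 607 genes above 6000 nt, 277 were higher and 16 lower. The 4 lower members, with mean lengths between 928 and 1978 nt, came from the shorter classes, and Itgal, at 5020 nt, from a longer one. The median log2 fold change was -0.36 for genes up to 1000 nt, the class of Icam2, and -0.13 for genes of 1000 to 2000 nt, the class of Cxcr4, Selplg and Ccr7. It was 0.04 for genes of 2000 to 4000 nt, the class of Cd47 and Itgb2, and 0.18 for genes of 4000 to 6000 nt, the class of Itgal. With a smooth trend on length removed from each library, Ccr7, Cxcr4 and Itgb2 still passed, with log2 fold changes of -0.26, -0.46 and 0.29. Itgal (0.10, adjusted p = 0.221), Selplg (-0.12, 0.179) and Icam2 (-0.02, 0.917) no longer did. In that fit 23.6% of all genes passed, 14.9% higher and 8.75% lower.

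**Figure D3:**
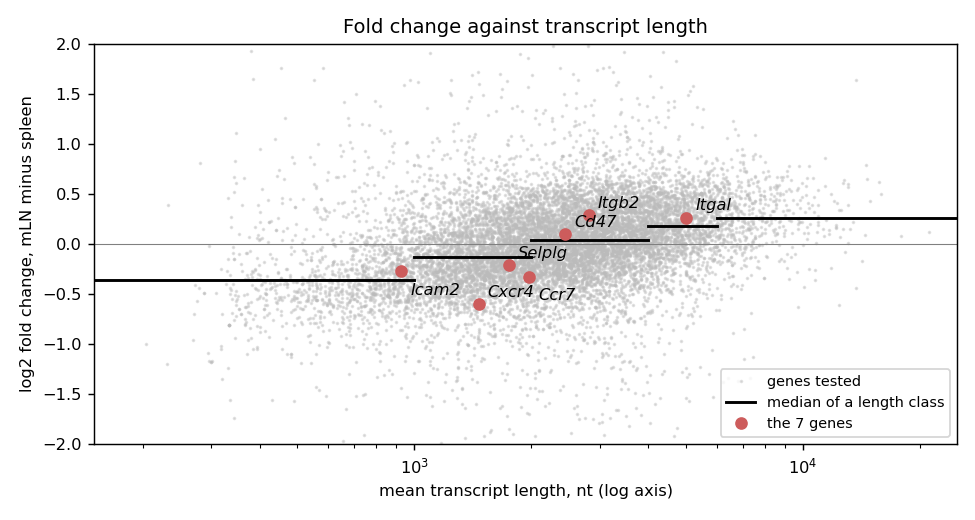
Log2 fold change (mLN minus spleen) of the genes tested against mean transcript length in nt on a log axis; black lines are the medians of 5 length classes, red points are the 7 genes, and 151 genes lie beyond the vertical range. Icam2 lies above the median of its class, Cxcr4, Ccr7 and Selplg below theirs, and Itgb2, Cd47 and Itgal above theirs.

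On deposited TPM, log2 of TPM plus 1 shifted the median of all genes to 0.21, and 25.2% of all genes passed, 22.1% higher and 3.08% lower. On that scale Itgal and Itgb2 were higher by 0.49 and 0.52, and the 4 lower members no longer passed. With each library centred on its median, 3 of the 7 passed: Itgal at 0.24 (adjusted p = 0.0419), Itgb2 at 0.28 (0.0174) and Ccr7 at -0.31 (0.0123, all limma). Cxcr4 was at -0.49 and missed the threshold (adjusted p = 0.0649). In that fit 14% of all genes passed, and 6.39% were higher and 7.58% lower.

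**Figure D4:**
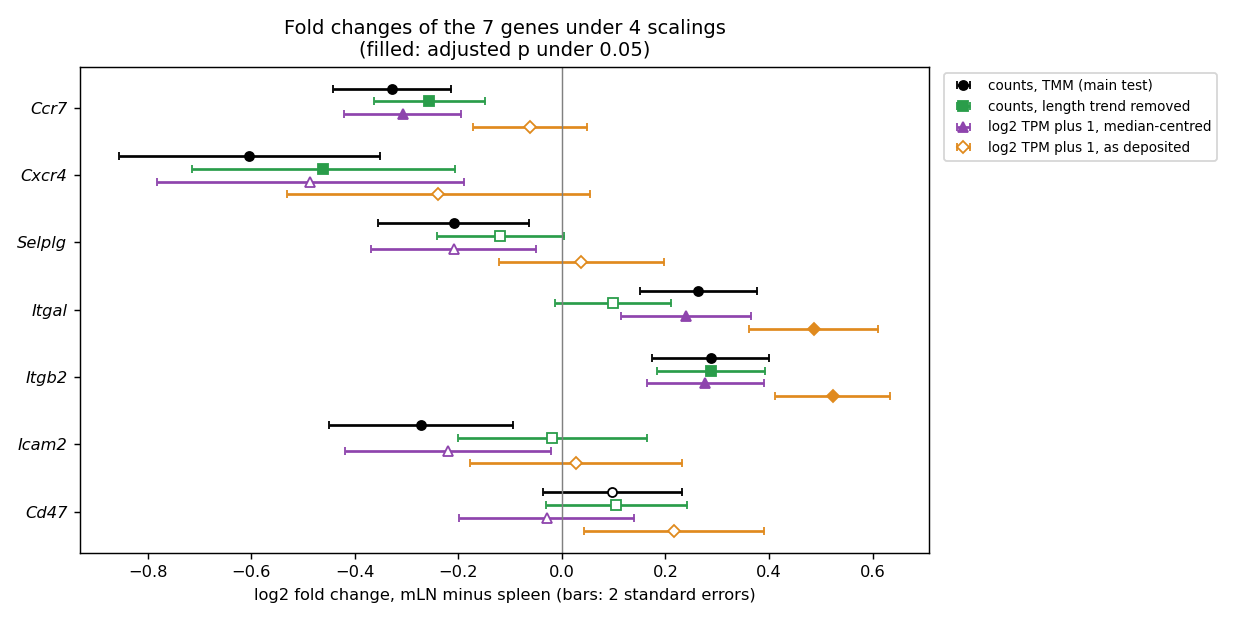
Log2 fold change (mLN minus spleen) of each of the 7 genes under 4 scalings; bars span 2 standard errors on each side and filled symbols have an adjusted p under 0.05. Itgb2 is to the right of 0 and filled on all 4 scales, and Ccr7 is filled to the left of 0 on each scale but TPM as deposited.

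Genes listed for the path from a chemokine signal to LFA-1 were more often higher than lower in mLN cells. The list holds genes that restrain integrins as well as genes that activate them, so its split gives no direction for the signal. Like the later lists, it was chosen with earlier results of these data known, so its counts are a description and no independent test. Of 30 genes in this list, all tested, 15 were higher and 3 lower, against 16.1% higher and 13.5% lower over all genes tested. The median log2 fold change was 0.23, against -0.01 over all genes tested. Tln1, which encodes talin, the protein that binds the beta chain tail printed above, rose 1.57-fold, to 1193 ± 60.0 CPM in mLN cells against 759 ± 43.7 CPM in spleen cells (SD, n = 3 each; adjusted p = 6.16e-08). Fermt3, which encodes kindlin-3, the second partner of that tail, rose 1.33-fold (adjusted p = 1.35e-04). Flna, whose product filamin also binds integrin beta tails, rose 1.29-fold, and Vav1, an exchange factor for Rac, rose 1.28-fold. Skap1, an adaptor that links the T cell receptor to integrins, was lower, at 0.809 of its spleen level, a call lost with the length trend removed (adjusted p = 0.113). In that fit 16 of the list were higher and 4 lower, and Tln1, whose mean transcript is 8008 nt, was at 0.41 in place of 0.65 on the log2 scale. Log2 TPM gave 20 to 0, but that scale called 22.1% of the whole table higher and just 3.08% lower. After median-centring the list split 8 to 1, beside whole-table shares of 6.39% higher and 7.58% lower. Removing the length trend left whole-table shares of 14.9% higher and 8.75% lower. Splits of the later lists on these scales stand against the same whole-table shares.

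**Figure D5:**
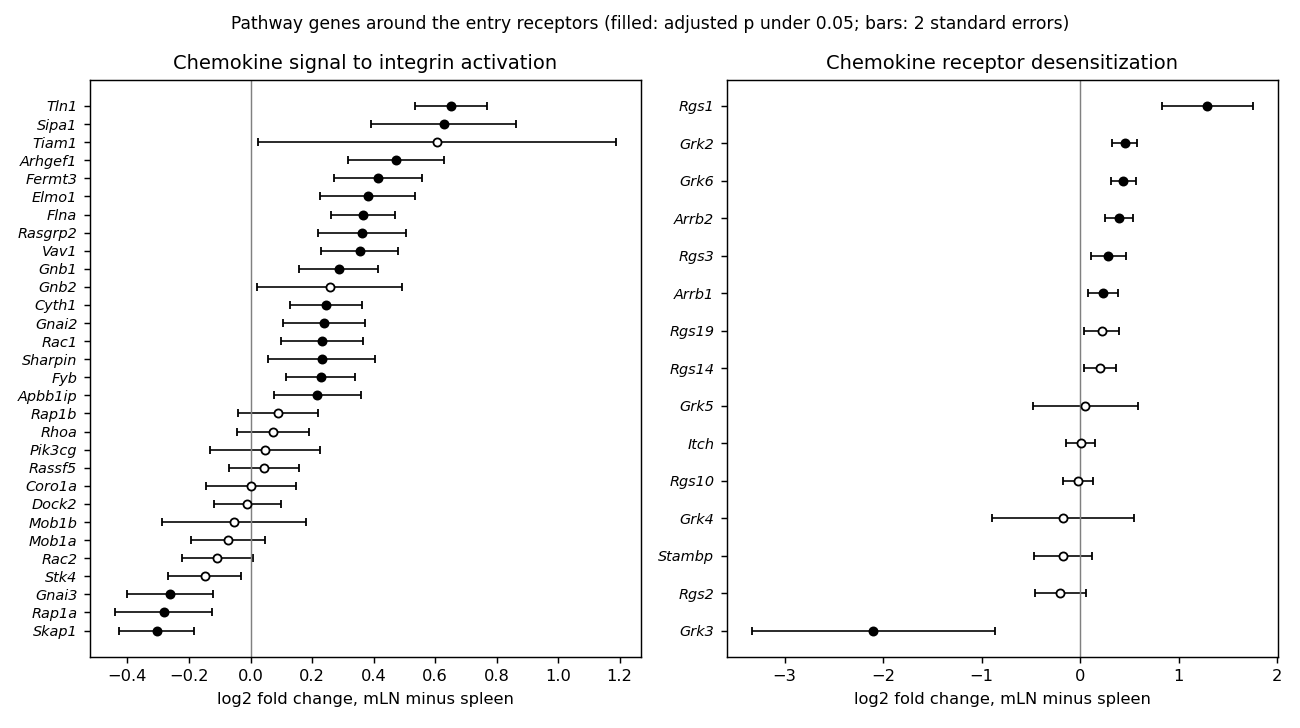
Log2 fold change (mLN minus spleen) of the tested genes of 2 lists, chemokine signal to integrin activation and chemokine receptor desensitization; bars span 2 standard errors on each side and filled points have an adjusted p under 0.05. In the first panel 15 filled points lie right of 0 and 3 left of it, and in the second 6 and 1.

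Genes that switch chemokine receptors off were also more often higher than lower in mLN cells. Of 18 listed genes 15 were tested, and 6 were higher and 1 lower, where 16.1% of all genes tested were higher and 13.5% lower. The median log2 fold change of the list was 0.20. Grk2 and Grk6, kinases that phosphorylate activated chemokine receptors, rose 1.37-fold and 1.35-fold, Grk2 to 657 ± 30.7 CPM in mLN cells against 481 ± 40.6 CPM in spleen cells (SD, n = 3 each; adjusted p = 1.64e-05). Arrb2, a beta-arrestin that uncouples and internalizes such receptors, rose 1.32-fold. Rgs1, which shortens the signal of their G proteins, rose 2.45-fold from a low level, with 12.8 ± 3.31 CPM in mLN cells and 5.22 ± 0.536 CPM in spleen cells (SD, n = 3 each). Grk3, at 0.430 ± 0.0838 CPM in mLN cells and 1.85 ± 0.386 CPM in spleen cells (SD, n = 3 each), was the lower one (adjusted p = 0.0128). Grk3 entered the test through its spleen counts, so the filter set its direction. No gene of the list was lower without spleen library 1, spleen library 2, mLN library 1 or mLN library 3. The list's split was 8 to 1 in the fit without the length trend and 8 to 0 on log2 TPM. Median-centred TPM gave 3 to 0, where Rgs1 was no longer called (adjusted p = 0.0747).

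Of 18 genes for the enzymes that build selectin ligands on PSGL-1 and other mucins, and for carriers of these sugars, 15 were tested. Of these 3 were higher and 1 lower, where 16.1% of all genes tested were higher and 13.5% lower. The median log2 fold change of the list was -0.01. The split was 6 to 0 on log2 TPM, 2 to 0 on median-centred TPM and 2 to 2 with the length trend removed. B4galt1 and St3gal1, which add galactose and sialic acid, rose 1.27-fold and 1.24-fold, and the call of St3gal1 was lost with the length trend removed (adjusted p = 0.135). B3gnt3, which extends O-glycans, was 2.02-fold higher at a low level of 7.51 ± 1.14 CPM in mLN cells and 3.71 ± 0.877 CPM in spleen cells (SD, n = 3 each). Cd44, an adhesion receptor that also carries such sugars, was lower at 0.781 (adjusted p = 0.0387), a call lost without any single library other than spleen library 3. On median-centred TPM neither B3gnt3 (adjusted p = 0.0707) nor Cd44 (0.157) passed. Fut7, the fucosyltransferase that completes selectin ligands in activated T cells, was not among those tested.

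Among the other integrin chains and ICAM genes, 14 of 19 were tested, 2 were higher and 3 lower, with a median log2 fold change of -0.04. The whole-table shares in this test were 16.1% higher and 13.5% lower. The split was 4 to 1 on log2 TPM, 1 to 1 on median-centred TPM and 2 to 5 with the length trend removed. Itgb7, the beta chain of the gut-homing integrin, rose 1.34-fold. Icam1, the other main ligand of LFA-1, rose 1.38-fold, to 37.2 ± 5.04 CPM in mLN cells against 26.9 ± 2.22 CPM in spleen cells (SD, n = 3 each; adjusted p = 0.00647), the opposite direction to Icam2 in CPM, but leaving out spleen library 2 (0.0521) or going to median-centred TPM (0.0705) ended the call. Cd226, an activating receptor that associates with LFA-1, fell to 0.625 of its spleen level, and Pecam1, an adhesion molecule of leukocytes and endothelium, to 0.857, though Pecam1 was at 0.06 (log2) on log2 TPM plus 1. Median-centred TPM ended both calls (adjusted p = 0.0572 for Cd226 and 0.135 for Pecam1). Itgax, a partner of Itgb2 in myeloid cells, was at 0.237 ± 0.315 CPM in mLN cells and 3.51 ± 0.938 CPM in spleen cells (SD, n = 3 each). Counted among the 3 lower genes, Itgax entered the test through its spleen counts, so the filter set its direction. Itgam, another partner of Itgb2 in myeloid cells, was at 8.36 ± 0.799 CPM in mLN cells and 10.5 ± 0.263 CPM in spleen cells and did not pass the test (adjusted p = 0.224).

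Of 20 other chemokine receptors, 8 had enough counts to test, and of these 0 were higher and 4 lower. Over all genes tested 16.1% were higher and 13.5% lower. The median log2 fold change of the 8 was -0.68. Gpr183, an oxysterol receptor listed with them, fell to 0.665 of its spleen level, with 65.6 ± 6.82 CPM in mLN cells and 98.5 ± 2.78 CPM in spleen cells (SD, n = 3 each). The other 3 were Cxcr2, Ccr1 and Ccr2, receptors of neutrophils and monocytes, with at most 0.352 CPM on average in mLN cells and at most 2.60 CPM in spleen cells. These 3 entered the test through their spleen counts, so the filter set their direction, and they weigh on the split and median of the list. They moved with the myeloid markers given above, whose part in the result was not tested.

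Of 9 genes for partners of CD47, 6 were tested, 1 was higher and 2 were lower, with a median log2 fold change of 0.01. Whole-table shares in this test were 16.1% higher and 13.5% lower. The list's split was 2 to 1 on log2 TPM, and 1 to 1 both without the length trend and on median-centred TPM. Ubqln1, an adaptor that ties CD47 to the cytoskeleton, rose 1.51-fold. Sirpa, the myeloid receptor for CD47, was at 0.392 ± 0.0799 CPM in mLN cells and 5.19 ± 0.929 CPM in spleen cells (SD, n = 3 each), again with the myeloid markers. Counted among the 2 lower genes, Sirpa entered the test through its spleen counts, so the filter set its direction. Bnip3, which encodes a mitochondrial protein that binds CD47, was called lower at 0.635 (adjusted p = 0.0475), a call that ended when any library but mLN library 1 was left out, with the length trend removed (0.122) and on median-centred TPM (0.0852). Of 12 ligand genes of lymph node stroma and vessels, Ccl19, Ccl21a, Cxcl13, Glycam1, Madcam1 and Cd34 were at 0 in all 6 libraries. Vcam1 was the only one of these tested, with 0.0950 ± 0.0470 CPM in mLN cells and 3.42 ± 1.45 CPM in spleen cells (SD, n = 3 each). Vcam1, too, entered the test through its spleen counts.

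For each called member, the genes with the most similar profile over the 6 libraries were found by the root mean square difference of log2 CPM, after each gene was centred on its own mean, among 7931 named genes with at least 10 CPM. For Ccr7 the nearest were Adgre5, which encodes the leukocyte adhesion receptor CD97, at a difference of 0.02, then Rer1 and Dctn4 at 0.03 each. For Cxcr4 they were Cd9, a tetraspanin, at 0.05, and Psma1 and Hint1 at 0.06 each. Itgb2 was most like Psap, Gltp and Actg1, the gene of cytoplasmic gamma-actin, all at 0.02. Itgal was nearest to Map3k3, Mcoln1 and Btbd9, Icam2 to Pttg1ip, Ccdc174 and Mad2l1bp, and Selplg to Otub1, Polr2e and Idh2, at differences between 0.02 and 0.04. Of these neighbours, Mcoln1, Btbd9, Mad2l1bp, Otub1, Polr2e and Idh2 did not themselves pass the edgeR test (adjusted p between 0.0520 and 0.209). All genes were measured in the same 6 libraries and under the same trend with length. A small difference is thus a description of these 6 profiles and carries no test.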

How the data were processed

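Libraries of polyadenylated RNA were made with a directional kit, per the labels' protocols. The submitters' processing notes name STAR and RSEM on mm10 with no version, and the strand setting is not stated. For each library the authors deposited an expected count, a TPM and an FPKM value per gene with the mean transcript length, made with RSEM per the file headers and the submitters' processing notes. Expected counts were rounded. Totals ran from 13205499 to 20054205, and 3 counts equal 0.150 to 0.227 CPM; this floor covers counting error only. Gene names come from a reference list of gene names, which held 55141 of 55487 identifiers. Coordinates and transcripts come from GENCODE vM21 (GRCm38). That release was taken as the annotation because, of 34056 single-transcript genes compared, 33993 had the deposited length within 0.5 nt. No 2 replicates agreed within sampling noise (chi-square per degree of freedom between 5.60 and 12.1).

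Counts were tested with edgeR 4.0.16 (quasi-likelihood, TMM factors, expression filter by group) in R 4.3.3 and p was Benjamini-Hochberg adjusted over 12486 genes. Lengths and TPM ratios were compared with two-sided exact permutation tests, which cannot go below p = 0.1. Standard errors of fold changes came from the F statistic. Alternatives were DESeq2 1.42.0, limma 3.58.1 on voom values and on log2(TPM + 1) or log2(TPM + 0.1), other factors and filters, a loess trend on length (span 0.3) removed per library, replicate blocks and each library left out. Fold changes on log2(TPM + pseudocount) understate changes of low genes. The deposited FPKM served only for a total per library. Scripts were tested on simulated data.

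The 7 genes, the 7 pathway lists and the 10 marker lists were chosen with earlier results of these data known. Named genes were up to 4 of each pathway list with the smallest p, every called gene where 5 or fewer were called, and the 3 genes most similar to each called member. Skap1, Grk3, Itgam, Fut7 and the single marker genes given were named after their values were seen.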

Additional observations from a re-analysis of the deposited data

How the results depend on the processing

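The counts moved most with the scale. Against 3699 genes called (2010 higher, 1689 lower), median-centred log2 TPM gave 1745 (798 higher, 947 lower) with a pseudocount of 1 and 1697 (768 higher, 929 lower) with 0.1. Lower genes numbered 384 on log2 TPM plus 1, 1092 with the length trend removed and 1069 at a threshold of 0.01. Of the 7 members, against 6 called, 2 passed on log2 TPM plus 1 (0 lower), 3 on either centred scale (1 lower) and 3 with the length trend removed (1 higher, 2 lower), and 2 were lower at a threshold of 0.01. With each library left out in turn, 2824 to 3680 genes and 4 to 6 members were called, with 2 to 4 members lower. Over 133 values of the members under 19 alternatives, 110 kept their direction and side of the threshold, 19 lost the threshold and 4 turned direction. Those 4 were Cd47, at -0.0295 and -0.0412 on the centred scales with pseudocounts of 1 and 0.1, and on log2 TPM plus 1 Icam2 at 0.0268 and Selplg at 0.0377. Other named genes turned direction on log2 TPM plus 1: Ccdc174 (0.181), Dctn4 (0.0635), Idh2 (0.0722), Mad2l1bp (0.0164), Otub1 (0.0468), Pecam1 (0.0618) and Polr2e (0.0562). With the length trend removed, Itgb3 was at -0.0805 and Polr2e at 0.0222, and at -0.0809 and 0.0260 with the replicate block added. Apart from the scales' own construction, the cause was not tested. With 1 library left out, the Cxcr4 length difference ran from -147 to 14.8 nt, that of Icam2 from -41.3 to 23.8 nt, and the log2 difference in the Itgal to Itgb2 ratio from -0.0807 to 0.000761. The labels do not say whether equal replicate numbers pair the samples. Correlations of same-numbered deviations were -0.002, -0.007 and 0.046, and only number 3 correlated best with its own number. With 3 libraries per organ these values cannot decide whether the samples are paired. With a replicate block 4706 genes and 6 members were called, and 4019 genes and 5 members with the length trend removed too. Counts of 3 allow no statement on genes under 0.150 to 0.227 CPM.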

Other observations

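The deposited FPKM summed over all genes to 704454, 709092 and 711273 in mLN libraries 1 to 3, against 829746, 828219 and 831266 in spleen libraries 1 to 3. The sums were thus close within each organ and did not overlap between organs. An FPKM sum weighs short transcripts more than long ones and also moves with the isoform lengths estimated and with a few abundant genes. Its relation to the trend of fold changes with length was not tested.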
